A study of Homo sapiens with 6 samples.

Results

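RNA levels of 50 genes of nucleolar ribosome biogenesis were examined in PC3 cells, a human prostate cancer line derived from a bone metastasis. The genes were chosen by symbol for their known function, with earlier results of these data known, and comprise nucleolin (NCL), proteins of small nucleolar ribonucleoproteins (snoRNPs), RNA polymerase I subunits and ribosome assembly factors. All 50 were found among the 24462 gene symbols of the count tables, and all 50 were among the 16314 genes with enough reads to test. The study asked what part CITED2, a transcriptional co-regulator, has in the spread of prostate cancer. RNA-seq was performed on 3 libraries of cells given control siRNA (si-Control) and 3 of cells given siRNA against CITED2 (si-CITED2), each at 80 nM for 72 h. Both groups were cells of this 1 line. The labels number the libraries 1 to 3, and the study describes the RNA-seq as 3 independent experiments.

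The nucleolus is the nuclear body in which RNA polymerase I transcribes ribosomal DNA. The precursor RNA is modified by snoRNPs, cut, and folded with ribosomal proteins into small and large subunits with the help of many assembly factors. Proliferating cells express these factors strongly, and nucleolin and nucleophosmin are among the most abundant nucleolar proteins.

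Total counts were 19508925 to 28936374 per library, so that 3 counts, taken as the detection floor, corresponded to 0.104 to 0.154 CPM, the count scaled to library size. Levels are given as normalized counts, that is, counts scaled to a common effective library size, and groups were compared by the edgeR quasi-likelihood test, its p-values adjusted after Benjamini-Hochberg over all 16314 genes. A gene was called at an adjusted p under 0.05. Of the 6 marker genes listed for PC3 cells, all had at least 1735 counts in every library. Of the 7 genes listed for androgen receptor-positive prostate lines, KLK2 and FOLH1 were at 0 in all libraries and KLK3 had at most 2 counts. Among 5 leukocyte genes, the defining markers PTPRC and CD3E had at most 2 counts, whereas CD68 reached 3947. The 6 genes of stroma and endothelium had at most 18 counts each and summed to 22 to 32 counts in si-Control and 15 to 26 in si-CITED2.

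CITED2 itself was not lower in the libraries labelled si-CITED2. Its normalized counts were 858.6, 892 and 773 in the si-Control libraries and 1084.3, 921.1 and 983.9 in the si-CITED2 libraries. The groups did not overlap, and the si-CITED2 libraries were the higher ones. The means were 841.2 ± 61.4 (SD, n = 3) and 996.4 ± 82.4 (SD, n = 3), a log2 fold change of 0.24 (SE 0.074, edgeR adjusted p = 0.0363). The exact two-sided permutation test gave p = 0.1, the smallest that 3 against 3 allows. The edgeR call was lost without si-Control 1 (adjusted p = 0.0536), si-Control 3 (0.141), si-CITED2 1 (0.154) or si-CITED2 3 (0.0846), and with scaling by library size alone (0.0518). The CITED2 mRNA count thus goes against the label, and every direction given here is that of the libraries labelled si-CITED2. The study checked the knockdown by immunoblotting CITED2 protein, which was not analysed here.

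Nucleolar genes were mostly lower in the libraries labelled si-CITED2. Of the 50 genes, 27 fell, none rose and 23 were not called by edgeR. Of all tested genes, 8.09% were called lower and 9.36% higher. The falls of the called genes were modest, from 10.1% to 25.7% with a median of 15.8%. For comparison, the median coefficient of variation of the 50 genes was 3.7% among si-Control libraries and 3.8% among si-CITED2 libraries. The median log2 fold change was -0.19 over the 50 genes and -0.0014 over all tested genes. Only NOP10 was higher at an unadjusted p under 0.05, and DESeq2 called 26 lower and 0 higher.

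Most members were lower in each library. All 3 si-CITED2 libraries lay below all 3 si-Control libraries for 33 of the 50 genes, 66%, against 16.1% of all tested genes. The opposite order was shown by 0 of the 50, against 2679 of the 16314 tested genes. The 33 genes included 7 of the 23 that were not called, for which no matching share over all genes was computed. The log2 fold change was below 0 for 46 genes and above 0 for NOP10, GAR1, POLR1C and WDR75. The median deviation of the 50 genes from their si-Control mean was 0.0143, -0.00651 and -0.00447 (log2) in the si-Control libraries. It was -0.207, -0.174 and -0.18 in the si-CITED2 libraries, where the median over all tested genes was 0.00166, 0.00211 and 0.00368. The si-Control values lie near 0 by construction, since the mean of these same libraries was subtracted. The 50 genes together took 0.967%, 0.946% and 0.938% of all counts with si-Control and 0.811%, 0.84% and 0.839% with si-CITED2. Without NCL and NPM1, the 2 most abundant genes, the share was 0.614% to 0.616% in si-Control and 0.528% to 0.539% in si-CITED2.

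**Figure D1:**
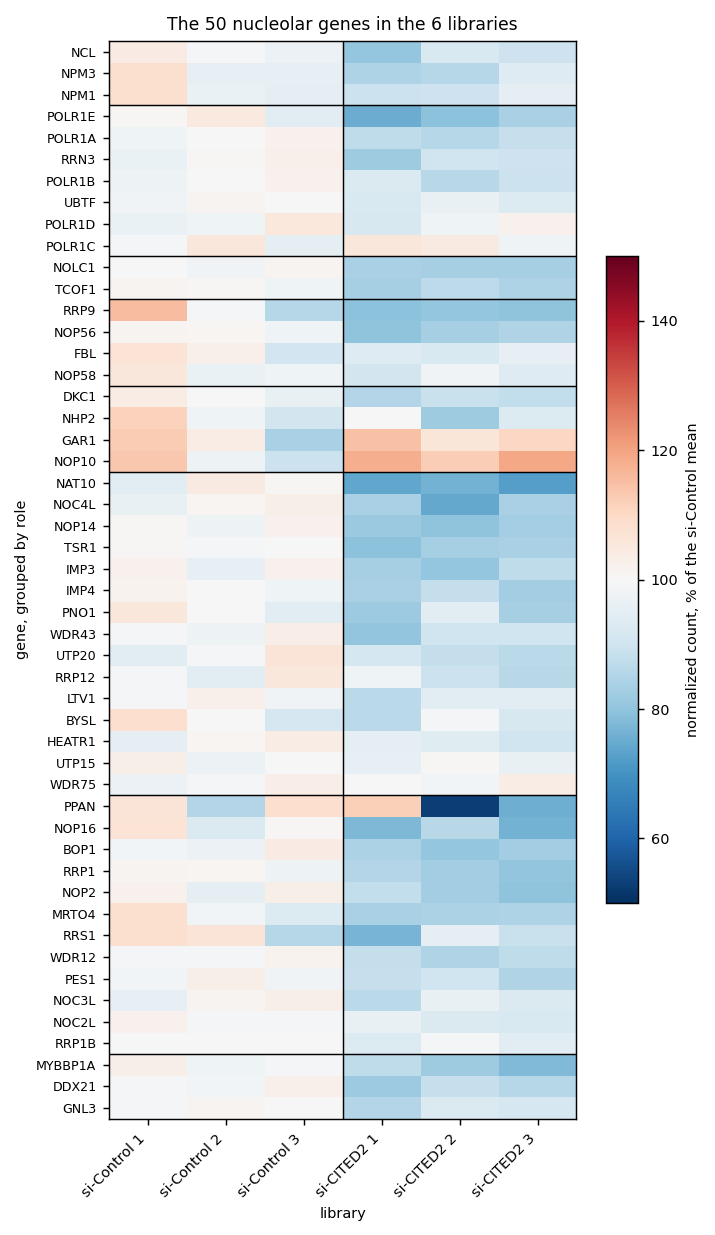
Normalized count of each of the 50 nucleolar genes (rows, grouped by role) in each of the 6 libraries (columns), as percent of the gene's si-Control mean. The 3 si-CITED2 columns are mostly blue (below the si-Control mean), with NOP10 and GAR1 the most visible exceptions, and PPAN has few reads.

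Highly expressed genes are called more often. Among the 5165 tested genes with a mean of at least 1000 normalized counts, 14.4% were called lower, while 24 of the 40 nucleolar genes at this level (60%) were. This limit was chosen after the values had been seen. In bulk libraries, fewer cells with a transcript and less of it per cell cannot be told apart. Of 12 genes of cycling cells, such as those of DNA replication and mitosis, 11 were also called lower, with log2 fold changes from -0.51 to -0.25, and the other, MCM6, had -0.12 (edgeR adjusted p = 0.13). Whether the share of cycling cells had a part in the nucleolar result was not tested.

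**Figure D2:**
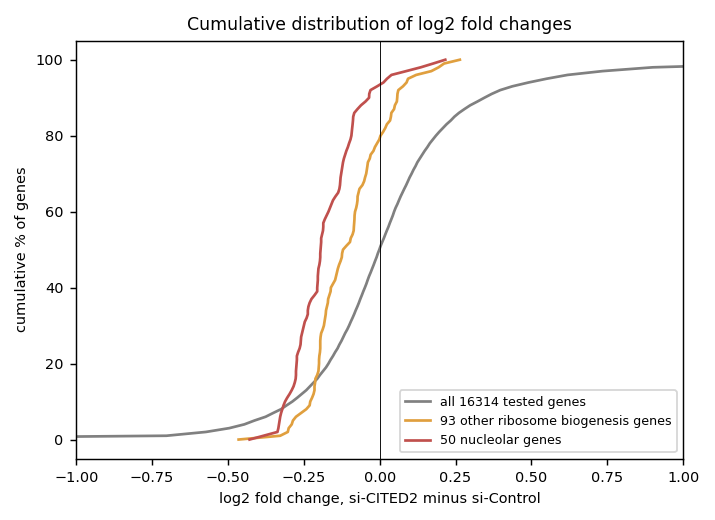
Cumulative percent of genes (vertical axis) at or below each log2 fold change, si-CITED2 minus si-Control (horizontal axis), for the 50 nucleolar genes, 93 other ribosome biogenesis genes and all 16314 tested genes. The nucleolar curve lies left of the curve of all genes around its middle, with medians of -0.19 and -0.0014, and has no long tail of large falls.

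Nucleolin, which binds ribosomal DNA chromatin and precursor RNA and also messenger RNAs, was the second most abundant member. NCL had 35933.2, 34196.2 and 33616.1 normalized counts with si-Control and 27843.3, 31888.3 and 31030.7 with si-CITED2. All 3 si-CITED2 libraries were below all si-Control libraries, and si-CITED2 1 was the lowest. The mean fell from 34581.8 ± 1205.7 to 30254.1 ± 2131.4 (SD, n = 3 each), by 12.5%. The log2 fold change was -0.19 (SE 0.054, 95% interval -0.31 to -0.08, edgeR adjusted p = 0.0197), and the exact two-sided permutation p was 0.1. Without si-CITED2 1 the log2 fold change of NCL was -0.138 (adjusted p = 0.0658) and without si-Control 2 it was -0.201 (adjusted p = 0.0572), so the call rests on these libraries.

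The nucleophosmin genes were not called. NPM1, an abundant nucleolar chaperone, had 47597.5, 42586.8 and 41793.7 normalized counts with si-Control and 39199.1, 39438.5 and 41930.9 with si-CITED2. The groups overlapped by 1 library, and the adjusted p of NPM1 in edgeR was 0.112 with a log2 fold change of -0.13. NPM3, a smaller relative, had a log2 fold change of -0.19 (adjusted p = 0.0615) with groups that did not overlap. NPM3 was called with scaling by library size alone (0.0369) and with no filter on low counts (0.0448).

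**Figure D3:**
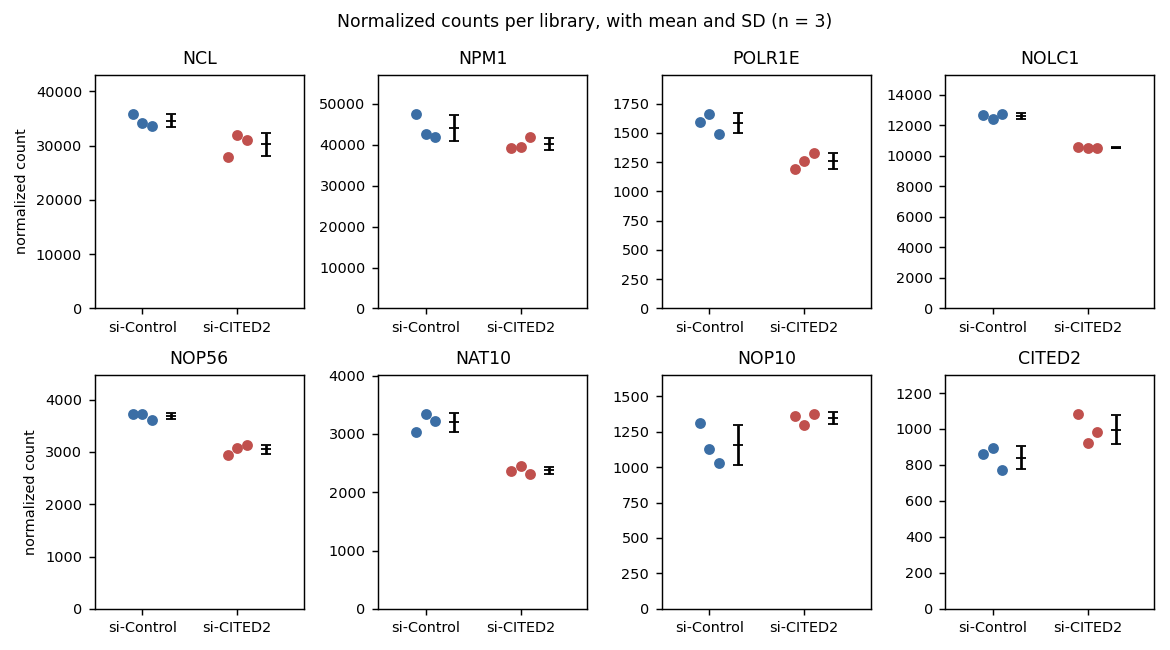
Normalized counts (vertical axes, starting at 0) of 7 nucleolar genes and CITED2 in each library, with points for the libraries and bars for the mean and SD of 3. NCL, POLR1E, NOLC1, NOP56 and NAT10 are lower in all 3 si-CITED2 libraries, NPM1 and NOP10 overlap between groups, and CITED2 is higher in all 3 si-CITED2 libraries.

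RNA polymerase I synthesizes the precursor of the large ribosomal RNAs, and 3 of 7 genes of this machinery fell. POLR1E, a subunit of the enzyme's peripheral heterodimer, had 1598, 1666.5 and 1495.5 normalized counts with si-Control and 1196.1, 1260.3 and 1329 with si-CITED2. The groups were well apart, and POLR1E fell by 20.5% (log2 fold change -0.33, SE 0.062, edgeR adjusted p = 0.00103). POLR1A, the largest catalytic subunit, had 1989.1, 2033.7 and 2077.9 normalized counts with si-Control and 1776.5, 1743.8 and 1802.3 with si-CITED2. It fell by 12.8% (adjusted p = 0.0134), and this call was lost without si-CITED2 2 (adjusted p = 0.0667). RRN3, the initiation factor that brings the polymerase to the promoter, fell by 12.7% (log2 fold change -0.19, adjusted p = 0.0258). The RRN3 call was lost without si-Control 2 (0.088), si-Control 3 (0.0768), si-CITED2 1 (0.0887) or si-CITED2 3 (0.0567). RRN3 has related pseudogenes, and how reads that match several copies were counted is not given in the sources used here.

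The other 4 genes of the polymerase group were not called. POLR1B, the second-largest subunit, had a log2 fold change of -0.16 (edgeR adjusted p = 0.0675) and was called with scaling by library size alone (0.0462). UBTF, which binds the ribosomal DNA promoter and gene body, had -0.09 (adjusted p = 0.229), and both genes had groups that did not overlap. POLR1C and POLR1D, the pair of subunits that RNA polymerase I shares with RNA polymerase III, had log2 fold changes of 0.03 and -0.04 with overlapping groups. Their 95% intervals, -0.12 to 0.19 and -0.18 to 0.11, include small changes in either direction.

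Both scaffold genes fell. NOLC1 (Nopp140), which binds snoRNPs and RNA polymerase I, had 12635.7, 12385.5 and 12755.8 normalized counts with si-Control and 10546, 10509.4 and 10489.3 with si-CITED2. The si-CITED2 values were close to each other (SD 28.7), and NOLC1 fell by 16.5% (log2 fold change -0.26, SE 0.044, edgeR adjusted p = 0.000465). TCOF1 (treacle), a related nucleolar phosphoprotein mutated in Treacher Collins syndrome, had 5917.5, 5864.3 and 5718.4 normalized counts with si-Control and 4859.5, 5062.1 and 4932.4 with si-CITED2. TCOF1 fell by 15.1% without overlap (log2 fold change -0.24, SE 0.046, adjusted p = 0.00156).

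Of the 4 proteins of box C/D snoRNPs, the particles that guide ribose methylation, 2 were called lower. NOP56, a core protein, had 3730.2, 3717.9 and 3612.2 normalized counts with si-Control and 2947, 3073.8 and 3127.9 with si-CITED2. It fell by 17.3% without overlap (log2 fold change -0.27, SE 0.048, edgeR adjusted p = 0.000674). The methyltransferase FBL (fibrillarin) and NOP58, which pairs with NOP56 in the particle, each had a log2 fold change of -0.09 with overlapping groups (adjusted p = 0.343 and 0.302). RRP9, specific to the U3 particle, had 661.2, 566.8 and 491.8 normalized counts with si-Control and 455.4, 462.5 and 456.9 with si-CITED2. Its si-Control values were spread widely, and RRP9 fell by 20.1% (log2 fold change -0.33, SE 0.096, adjusted p = 0.0255). RRP9 kept its call only without si-Control 3 (adjusted p = 0.00348), and its log2 fold change shrank to -0.214 (adjusted p = 0.117) without si-Control 1. The adjusted p was 0.0612 to 0.077 without si-Control 2 or any 1 si-CITED2 library.

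The proteins of box H/ACA snoRNPs, which convert uridine to pseudouridine, held 2 of the 4 positive log2 fold changes. DKC1 (dyskerin), the pseudouridine synthase, had 5573.5, 5390.9 and 5167.7 normalized counts with si-Control and 4581.4, 4781.2 and 4720.9 with si-CITED2. DKC1 fell by 12.7% without overlap (log2 fold change -0.2, SE 0.048, edgeR adjusted p = 0.00915). NOP10, its small structural partner, had 1310.1, 1127.9 and 1029.5 normalized counts with si-Control and 1363.6, 1298.5 and 1377.2 with si-CITED2. Because si-Control 1 was above the lowest si-CITED2 library, the NOP10 groups overlapped. The log2 fold change of NOP10 was 0.22 (SE 0.075) with an adjusted p of 0.0599, which passed the threshold without si-Control 1 (0.00346) and with no filter on low counts (0.0294). GAR1 and NHP2, the remaining core proteins, had log2 fold changes of 0.13 (95% interval -0.11 to 0.37) and -0.13 (-0.29 to 0.04) with overlapping groups.

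Of 15 genes for assembly and export of the small subunit, 8 fell. The largest fall among all called nucleolar genes was that of NAT10, an RNA cytidine acetyltransferase that modifies the small subunit RNA. NAT10 had 3031.6, 3346 and 3215.7 normalized counts with si-Control and 2364.2, 2444.1 and 2315 with si-CITED2. The groups were far apart, and NAT10 fell by 25.7% (log2 fold change -0.43, SE 0.053, 95% interval -0.54 to -0.32, edgeR adjusted p = 2.06e-05).

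NOP14 and NOC4L, which bind each other within the early small subunit particle, fell by 18.5% and 19.3%. NOP14 had 5408.2, 5242.7 and 5504.2 normalized counts with si-Control and 4388.4, 4306.4 and 4470.1 with si-CITED2 (edgeR adjusted p = 0.000255). NOC4L had 569.7, 595.8 and 607.1 with si-Control and 494.2, 440.5 and 495.2 with si-CITED2 (adjusted p = 0.0101, or 0.0662 without si-CITED2 2). TSR1, a GTPase-like factor of late small subunit maturation, had 6147.7, 6073.6 and 6086.7 with si-Control and 4848.6, 5083.2 and 5124.1 with si-CITED2. TSR1 fell by 17.8% without overlap (adjusted p = 0.000357).

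IMP3 and IMP4 bridge the U3 snoRNA to the precursor RNA. IMP4 fell by 15.2% (edgeR adjusted p = 0.00635), while IMP3 was 16.2% lower with an adjusted p of 0.0502. In both genes all 3 si-CITED2 libraries were below all si-Control libraries. IMP3 was called with scaling by library size alone (0.0364) and with upper quartile scaling (0.0459).

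Calls of the remaining lower small subunit genes were less stable. WDR43, a protein of the complex that joins precursor transcription to processing, fell by 13.1% (edgeR adjusted p = 0.0142) and lost its call without si-Control 3 (0.0548) or si-CITED2 1 (0.0543). UTP20, a large scaffold protein, fell by 11.4% (adjusted p = 0.0291), and this was 0.0738 without si-Control 2, 0.13 without si-Control 3, 0.105 without si-CITED2 2 and 0.13 without si-CITED2 3. PNO1, an RNA-binding protein of the late particle, fell by 13.4% (adjusted p = 0.0477) although its groups overlapped, with 1277.2, 1209.2 and 1139 normalized counts against 990.8, 1139.9 and 1010.1. PNO1 was called only without si-Control 3 or without si-CITED2 2, and its adjusted p was 0.117 to 0.185 without any other library. Of the other 6 small subunit genes, RRP12, LTV1, BYSL, HEATR1 and UTP15 had log2 fold changes from -0.13 to -0.03, and WDR75 had 0.01. None of these 6 was called, and LTV1 alone among them had groups that did not overlap.

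Large subunit assembly was represented by 12 genes, of which 7 fell and all had a log2 fold change below 0. BOP1, PES1 and WDR12 form the PeBoW complex, which is needed for processing of the large subunit RNA, and all 3 were called. BOP1 had 1856.7, 1831.6 and 1963.8 normalized counts with si-Control and 1587.1, 1519.2 and 1557.9 with si-CITED2, a fall of 17.5% (edgeR adjusted p = 0.00164). PES1 had 2891.2, 3017.5 and 2878 with si-Control and 2591.3, 2636.2 and 2491.4 with si-CITED2, a fall of 12.2% (adjusted p = 0.0154). WDR12 had 1040.8, 1037 and 1068.4 with si-Control and 922.8, 891.5 and 914.8 with si-CITED2, a fall of 13.3% (adjusted p = 0.0229). The groups of all 3 genes were apart. The PES1 call was lost without si-Control 2 (0.085) or si-CITED2 3 (0.0961). The WDR12 call was lost without si-Control 2 (0.058), si-Control 3 (0.0634), si-CITED2 2 (0.0919) or si-CITED2 3 (0.0725).

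NOP16, RRP1, NOP2 and MRTO4 were the other large subunit genes that fell. NOP16, a nucleolar assembly factor, had 1631.8, 1417 and 1536.7 normalized counts with si-Control and 1182.7, 1314.7 and 1169 with si-CITED2. It fell by 20% (log2 fold change -0.32, SE 0.067, edgeR adjusted p = 0.00282). RRP1 and NOP2, the latter a methyltransferase of the large subunit RNA, fell by 17.2% and 16.6% (adjusted p = 0.00118 and 0.00323). MRTO4, which holds the place of a stalk protein in the pre-ribosome, fell by 15.8% (adjusted p = 0.00883), and none of these 4 genes had overlapping groups. The genes not called were RRS1, NOC3L, NOC2L and RRP1B, with log2 fold changes from -0.2 to -0.07, and PPAN. RRS1 was called without si-Control 3 (adjusted p = 0.0215).

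PPAN could hardly be measured as a gene of its own. Its row held 12 to 26 counts per library, the fewest of the 50 genes, and its log2 fold change of -0.34 had a 95% interval of -1.05 to 0.38. The annotation used here (GENCODE 29) places 83.2% of its exon bases within another gene on the same strand. The row of the read-through gene PPAN-P2RY11 held 1437, 1603 and 1027 counts with si-Control and 1026, 1175 and 934 with si-CITED2. Its log2 fold change was -0.16 (edgeR adjusted p = 0.142), and the groups overlapped.

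The 3 nucleolar genes with other roles fell. MYBBP1A, a nucleolar protein that binds several transcription factors, had 4107.9, 3904.7 and 3966.4 normalized counts with si-Control and 3489.8, 3287.8 and 3118.1 with si-CITED2. It fell by 17.4% (log2 fold change -0.28, SE 0.052, edgeR adjusted p = 0.00125). DDX21, an RNA helicase of ribosomal RNA transcription and processing, had 10394.2, 10355.9 and 10788.5 with si-Control and 8618.9, 9289.2 and 9016.8 with si-CITED2. It fell by 14.6% (adjusted p = 0.00267), and neither gene had overlapping groups. GNL3 (nucleostemin), a GTP-binding protein of proliferating cells, had the smallest called fall of the 50, 10.1% (adjusted p = 0.042). GNL3 was called only without si-Control 1 (0.0445), and its adjusted p was 0.0637 to 0.143 without any other library.

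**Figure D4:**
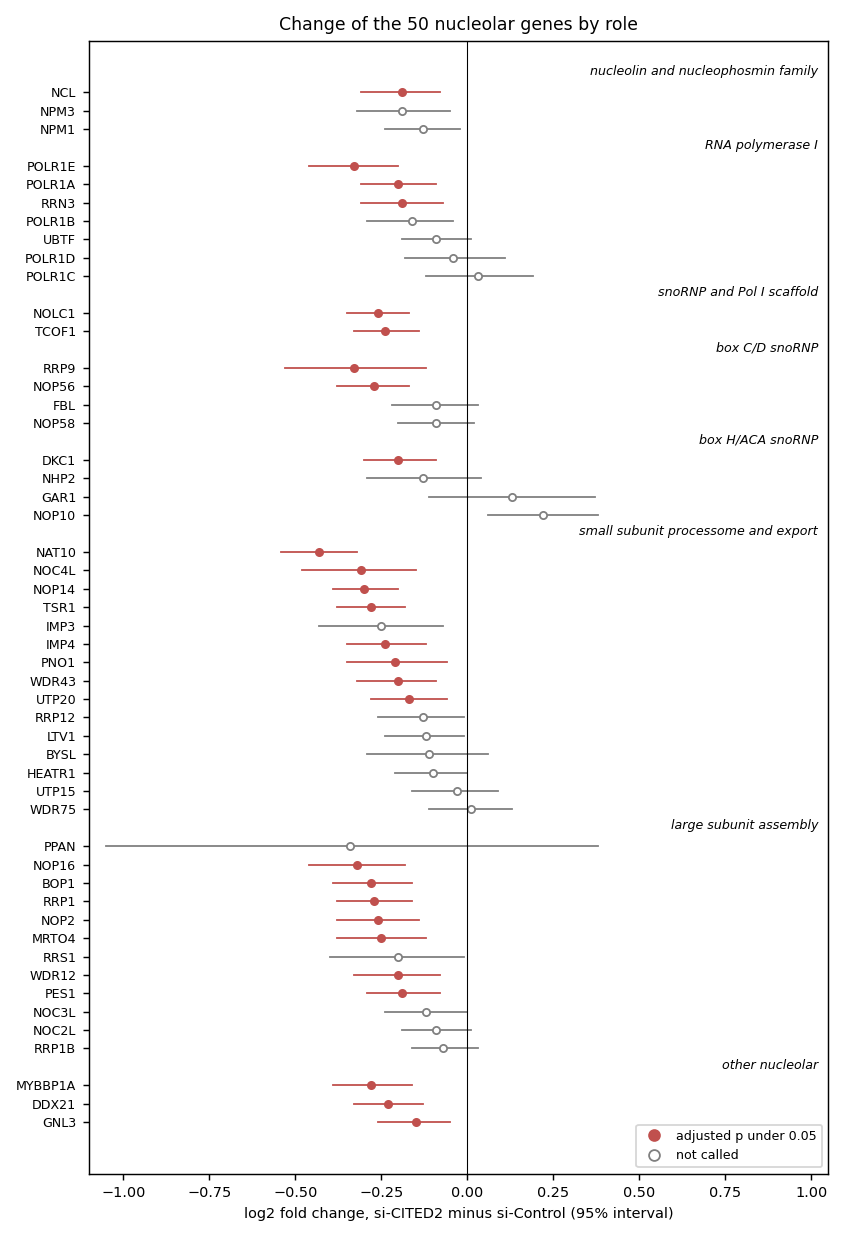
Log2 fold change, si-CITED2 minus si-Control (horizontal axis), with its 95% interval for each of the 50 nucleolar genes, grouped by role, with filled red points at an edgeR adjusted p under 0.05 and open grey points for genes not called. The 27 called genes all lie left of 0, NAT10 farthest at -0.43, and the 4 points right of 0 are NOP10, GAR1, POLR1C and WDR75.

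Of the 27 called genes, 16 stayed under an adjusted p of 0.05 in each of the 6 fits that left out 1 library. These were NAT10, NOP14, TSR1, IMP4, BOP1, NOP2, NOP16, RRP1, MRTO4, NOLC1, TCOF1, NOP56, DKC1, POLR1E, DDX21 and MYBBP1A. Between 19 and 25 of the 50 genes were called lower in these smaller fits, the fewest without si-Control 2.

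Levels were compared between genes as RPKM-like values, that is, CPM divided by the transcript length in kilobases (principal GENCODE 29 transcript), since longer transcripts give more reads. NPM1 led with 1060.7 ± 76 in si-Control (SD, n = 3), followed by NCL with 363.4 ± 12.7, FBL with 142.4 ± 12.3, NOLC1 with 135.8 ± 2.1 and NHP2 with 111.7 ± 11.9. FBL and NOLC1 did not differ beyond their spread, whereas NPM1 and NCL were clearly apart. Among the proteins of the H/ACA particle, DKC1 (88.5 ± 3.3) and NOP10 (88.4 ± 10.9) had like levels in si-Control, and GAR1 had 9.2 ± 1.4. In si-CITED2, DKC1 had 77.2 ± 1.7 and NOP10 103 ± 3.2. The lowest values were those of POLR1A (6.8 ± 0.1), WDR12 (5.5 ± 0.1) and PPAN (0.6 ± 0.1). POLR1A and WDR12 were divided by long transcripts, of 12749 and 8100 bases, and PPAN shares most of its exon bases with another gene. These values rest on 1 transcript per gene, which may not be the one used in PC3 cells.

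Some genes share exon bases with a neighbour. More than 10% of exon bases overlapped a gene on the same strand for 4 members, among them NOP2 (70.9%) and LTV1 (34.8%). The opposite strand was shared for 9 members, among them IMP3 (73%) and NHP2 (43.8%). Whether counting used strand is not given in the sources used here, so the counts of these genes may hold reads of their neighbours.

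Other genes of the same process were listed by function. Of 93 further factors, 31 fell (33.3%, against 8.09% of all tested genes), SBDS rose and 61 were not called by edgeR, and the median log2 fold change was -0.12. The number lower was 16 without si-CITED2 2, 18 without si-CITED2 3 and 19 without si-Control 2. Among factors of the large subunit 21 of 47 fell, among those of the small subunit 9 of 38, and among those of RNA polymerase I 1 of 8 (12.5%, near the share of all tested genes). The largest falls were those of NLE1 (log2 fold change -0.47, adjusted p = 0.00249), NOL6 (-0.32, 0.000273), DDX51 (-0.3, 0.00796) and NOL8 (-0.3, 0.00139). NLE1, which has a role in late large subunit maturation, had 405 ± 15.2 normalized counts with si-Control and 294 ± 29.4 with si-CITED2. SBDS, which helps release a block to subunit joining in the cytoplasm and is mutated in Shwachman-Diamond syndrome, rose from 1855.4 ± 113.8 to 2230.6 ± 98.7 (log2 fold change 0.26, adjusted p = 0.00437). The difference between the 50 and the 93 genes was not tested.

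Promoters of the nucleolar genes were searched for CACGTG, the canonical E-box bound by MYC with MAX and by related helix-loop-helix proteins. RefSeq windows of 250 bases before to 50 bases after the start (GRCh38.p14) were given for 42 of the 50 genes, and CACGTG, which reads the same on both strands, was present in 19 (45.2%). It was present in 27.8% of 72 windows of the other biogenesis genes, in 12% of 11455 windows of tested genes and in 8.77% of all windows. Of the 21 sites, 19 began within 50 bases of the start. The following windows show the site in capitals with up to 10 bases on each side, 5′ to 3′ on the strand of the gene, for 6 genes that fell and 2 that were not called.
NAT10 (chr11:34105604-34105629, + strand): tgcgcttgcgCACGTGctgtctacca
NOP14 (chr4:2963376-2963401, - strand): cgcggcccggCACGTGtcttagggta
RRP9 (chr3:51941894-51941919, - strand): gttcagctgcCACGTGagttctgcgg
MYBBP1A (chr17:4555342-4555367, - strand): ggccggagcaCACGTGtttcgtgttt
DDX21 (chr10:68956606-68956631, + strand): ccgggtgtccCACGTGgtccccggcg
PES1 (chr22:30591882-30591907, - strand): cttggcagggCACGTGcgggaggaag
FBL (chr19:39846358-39846383, - strand): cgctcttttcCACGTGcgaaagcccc
NOP10 (chr15:34343132-34343157, - strand): aattgacgaaCACGTGacgcggtcgg

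In NAT10, RRP9, DDX21 and NOP10 the site printed begins 15, 5, 31 and 11 bases before the start, and in the other 4 genes it begins between 7 and 28 bases after it. The motif was present in 13 of 23 windows of genes that fell (56.5%) and in 6 of 19 of genes that were not called (31.6%), a difference that was not tested. The NOP10 promoter holds 2 such sites, and NOP10 was not called. Of all tested genes, 13.8% of those with the motif and 8.02% of those without it were called lower. MYC mRNA had 1351.1 ± 12.5 normalized counts with si-Control and 1204.7 ± 53.2 with si-CITED2 (log2 fold change -0.16, edgeR adjusted p = 0.0604), with groups that did not overlap. CCGGAA, the core bound by ETS factors and searched on both strands, was present in 50% of the nucleolar windows, 66.7% of those of the other biogenesis genes and 32.3% of those of tested genes. Its split by call ran opposite to that of the E-box, with 39.1% of the windows of nucleolar genes that fell and 63.2% of those not called. GGGCGG, the core of the GC box, likewise searched on both strands, was present in 78.6% of nucleolar windows (69.6% of genes that fell and 89.5% of those not called) and in 74.1% of those of tested genes. A motif match describes the sequence alone, and no binding was measured here.

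**Figure D5:**
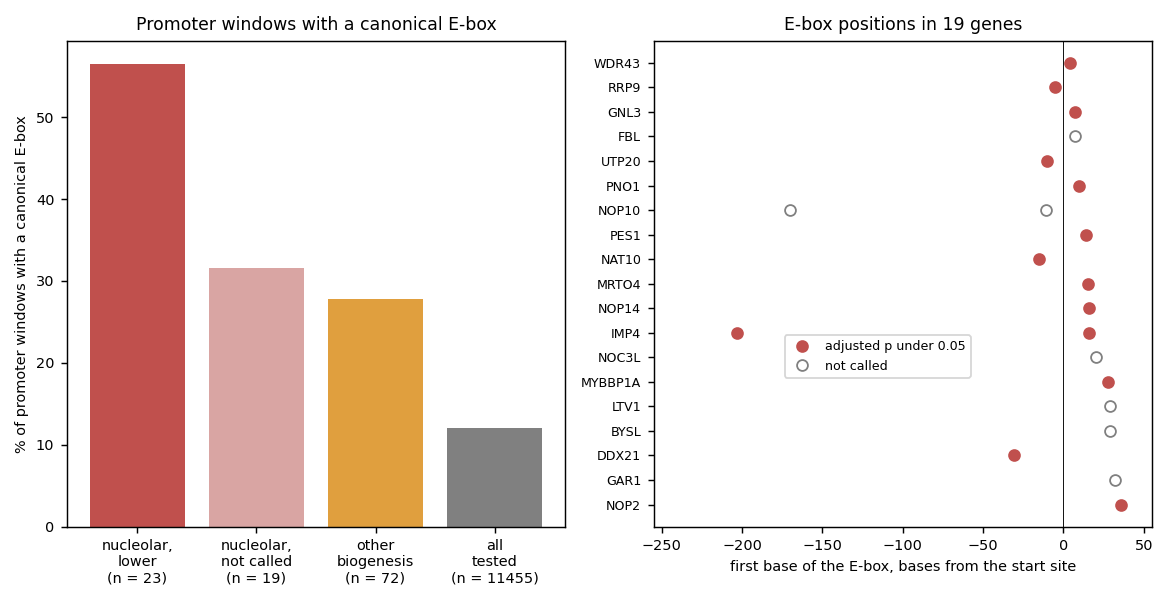
Left, percent of promoter windows with a canonical E-box (vertical axis, from 0) among nucleolar genes that fell, nucleolar genes not called, other biogenesis genes and all tested genes. Right, distance in bases of each site's first base from the start site (horizontal axis) in the 19 nucleolar genes with a site, of which 13 fell, with most sites close to the start.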

How the data were processed

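RNA-seq libraries of PC3 cells (3 si-Control, 3 si-CITED2) were grouped by the sample labels. Per library, 1 table of unnormalized read counts by gene symbol was deposited by the authors. The submitters' processing notes name TopHat, edgeR and hg19, and the counting program, annotation and strand setting are not given in the sources used here. Each table held 25737 rows for 24462 symbols, and of rows with one symbol that with most counts was kept (no nucleolar gene had several). Counts were filtered with filterByExpr (16314 genes), TMM-normalized and compared without a block by the quasi-likelihood test in edgeR 4.0.16 (R 4.3.3), and DESeq2 1.42.0 was an alternative. Standard errors came from the F statistic and 95% intervals from the t distribution. Precision is limited by 3 libraries per group, and the 3-count floor covers counting error only. The scripts were tested on simulated data. Alternatives were other scalings, filters, summed rows, a replicate block, a stricter threshold and leaving out each library. Replicate numbers did not mark a shared batch in the labels. The nucleolar genes and all gene lists were chosen with earlier results of these data known. The genes named in the text were CITED2, NCL, every called nucleolar gene, the 3 largest rises and falls, the genes with most and fewest counts and the largest called changes (up to 4 a direction) of the other biogenesis list. The remaining nucleolar genes, MYC and PPAN-P2RY11 were added after their values had been seen. Of the other biogenesis genes, 10 were matched by an older symbol.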

Additional observations from a re-analysis of the deposited data

How the results depend on the processing

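The count of nucleolar genes called lower was 24 to 30 over the 8 fits with another tool, scaling, filter, row rule or block, against 27, and 19 to 25 when 1 library was left out, with log2 medians of -0.207 to -0.185. With the replicate number as a block, 24 nucleolar genes, 26 other biogenesis genes and 1154 of all genes were lower (NCL -0.195, adjusted p = 0.0318). GNL3, PNO1 and UTP20 lost their calls under it (0.0606, 0.0626 and 0.0538). Over all tested genes, the deviations of same-numbered libraries from their group means were hardly correlated (r = -0.0445, 0.029 and -0.0225). Such a correlation cannot show whether libraries with 1 number share an experiment. The pseudogene RRN3P1 was highest in both libraries numbered 3, with 488 and 367 counts against 28 to 144 in the others. Scaling by library size alone gave medians of -0.212 (nucleolar) and -0.0184 (all genes), 2 calls in the nucleolin family, a CITED2 change of 0.221 (adjusted p = 0.0518) and a WDR75 change of -0.007. It also moved the counts over all genes to 1530 lower and 1390 higher, from 1319 and 1527. With no filter there were 1 nucleolar gene higher (NOP10), 2 lower in the nucleolin family and 2 other biogenesis genes higher, as also with DESeq2 (2), where PNO1 was not called (0.058). At an adjusted p under 0.01, the counts were 16 nucleolar, 10 other biogenesis and 705 of all genes lower and 970 higher, with 1 for box C/D, 0 for the nucleolin family, 1 for RNA polymerase I and 4 for the small subunit, and neither NCL (-0.193) nor CITED2 (0.238) passed. Leaving out 1 library gave 0 to 1 nucleolar genes higher, 16 to 25 other biogenesis genes lower and 1 to 2 higher, 1 to 2 box C/D and 0 to 1 nucleolin family genes lower, NCL changes of -0.235 to -0.138 and CITED2 changes of 0.173 to 0.291. Without si-CITED2 2 the other biogenesis count was 16, without si-CITED2 3 it was 18 and without si-Control 2 it was 19, against 31. With 1 library left out, log2 changes near 0 changed sign for WDR75 (-0.01 to 0.034, with -0.009 without si-Control 1), POLR1C (0 to 0.078) and POLR1D (-0.07 to 0.002). The cause was not tested. Of 750 pairs of a nucleolar gene and a setting, 49 lost a call, 8 gained one and 5 changed sign. At 19508925 to 28936374 counts per library, PPAN, with 12 to 26 counts, was the gene most limited by depth.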
